A study of Drosophila melanogaster with 3 samples.

Results

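Isolated peaks are those peaks of a chromatin immunoprecipitation sequencing (ChIP-seq) list that have no other peak nearby, here within 20 kb. The list came from Drosophila melanogaster of the stage labelled 3dFemale, source 7T, carrying the transgene cad-GFP, and the ChIP was made with an anti-GFP antibody labelled NWG-GFP. The series holds 1 ChIP sample (replicates 1 and 2 in its title) and 2 input samples of the same stage and source. The inputs were not analysed here. The growth text of the labels speaks of embryos of y w, VK33 flies, at odds with 3dFemale, and the label 3dFemale is kept here without deciding between them. The promoter that drives the tagged protein is not given in the labels, and a peak list holds no marker by which the tissue could be checked. Isolated peaks were chosen by position alone. A peak of the arms 2L, 2R, 3L, 3R, 4 or X was a member when its midpoint had no other midpoint of the list within 20 kb on either side. This held for 293 of the 7556 peaks on the 6 arms (3.88%, exact 95% binomial interval 3.45 to 4.34%, which covers counting error only), out of 7579 peaks in all. The other 7263 arm peaks had at least 1 neighbour that close.

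Caudal, the protein made from cad, is a homeodomain transcription factor. It is known for patterning the posterior of the embryo and for its part in the gut of the adult fly. A ChIP-seq peak marks a stretch where fragments recovered with the tagged factor pile up, and developmental regulator genes are known for several such stretches close together, whereas a solitary peak stands by itself. Whether Caudal was bound at any of these peaks was not tested.

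The positions that chose the members come from the same peak call as the widths and scores, and 1 list stands for the ChIP replicates. Every comparison below is therefore a description without a test, and no value has a replicate error. Widths are in bp and starts are counted from 1 on the build BDGP5. The score is the authors' own value per peak. It is not defined in the file, starts at 50, and piles up at 3100, where 29 peaks of the list share that value. The highest score is 3145.59, so 3100 is not the top of the scale. It is used here to order peaks within the list and not as an amount of binding. The read depth is unknown, since the list gives neither reads nor fold enrichment. No genome sequence or annotation of BDGP5 was used, so peaks are named by position and no gene or sequence is given for them.

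Isolated peaks were narrow. Their median width was 818 bp (quartiles 593 and 1244 bp, range 322 to 8792 bp), against 1399 bp for the other arm peaks (quartiles 895 and 2226 bp, range 258 to 15741 bp). The ratio of the medians was 0.585. The exact 95% order-statistic interval of the median was 750 to 905 bp for isolated peaks and 1368 to 1425 bp for the others. Widths under 600 bp were held by 74 isolated peaks (25.3%, exact interval 20.4 to 30.6%) and by 573 others (7.89%). Widths of 4 kb or more were held by 5 isolated peaks (1.71%, exact interval 0.556 to 3.94%) and by 501 others (6.90%). Isolated peaks together covered 334 kb, which is 2.48% of the sequence inside arm peaks, although they were 3.88% of the peaks.

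Their scores were also lower. Of the other peaks, 61.3% scored above the median isolated peak, where 79.4% were wider than the median isolated peak. The median score was 149 for isolated peaks (quartiles 85.0 and 314), against 201 for the others (quartiles 103 and 424), a ratio of 0.741 on the authors' scale. The exact interval of the median was 126 to 169 for isolated peaks and 196 to 208 for the others. The 95th percentile was 742 for isolated peaks and 1179 for the others. Scores under 100 were held by 94 isolated peaks (32.1%) and 1722 others (23.7%). Scores of 1000 or more were held by 10 isolated peaks (3.41%, exact interval 1.65 to 6.19%) and 502 others (6.91%). Of the 31 arm peaks at 3100 or above, 1 was isolated.

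**Figure D1:**
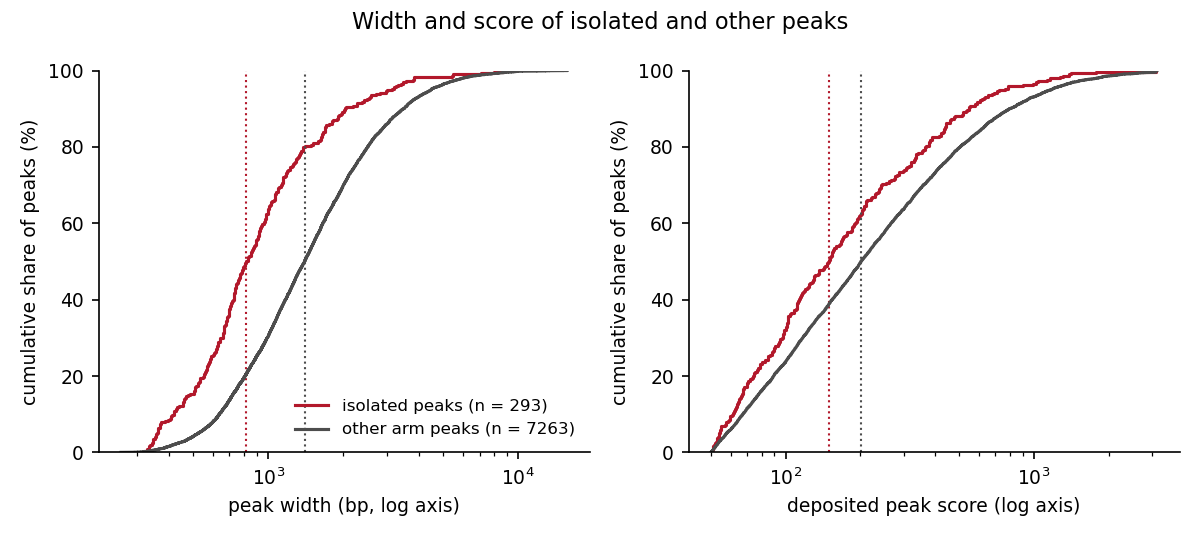
Cumulative share of peaks (%) against peak width (bp, log axis, left) and against the deposited score (log axis, right), for the 293 isolated peaks in red and the 7263 other arm peaks in grey. Dotted lines mark the medians, 818 against 1399 bp for width and 149 against 201 for score, and the red width curve lies left of the grey one over most of its length.

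Median width rose with the number of neighbours over several classes, though little beyond 3 to 4, and did not set isolated peaks apart by a single step. The median was 818 bp with no neighbour within 20 kb (293 peaks), 1067 bp with 1 neighbour (593 peaks), 1310 bp with 2 (942 peaks), 1436 bp with 3 to 4 (2469 peaks) and 1460 bp with 5 or more (3259 peaks). The share of peaks under 600 bp in the same 5 classes was 25.3%, 17.9%, 10.2%, 7.65% and 5.58%. The quartiles of neighbouring classes overlapped throughout. Median scores ran from 149 with no neighbour through 184 with 1 and 193 with 2 to 207 with 3 to 4 and 205 with 5 or more. Peaks with exactly 1 neighbour had the highest share of scores of 1000 or more, 8.09%, against 3.41% with none and 6.36 to 7.21% with 2 or more. Peak by peak the relation was weak. Over all arm peaks Spearman's rho of the number of neighbours was 0.12 with width and 0.03 with score, as descriptions of 1 list.

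**Figure D2:**
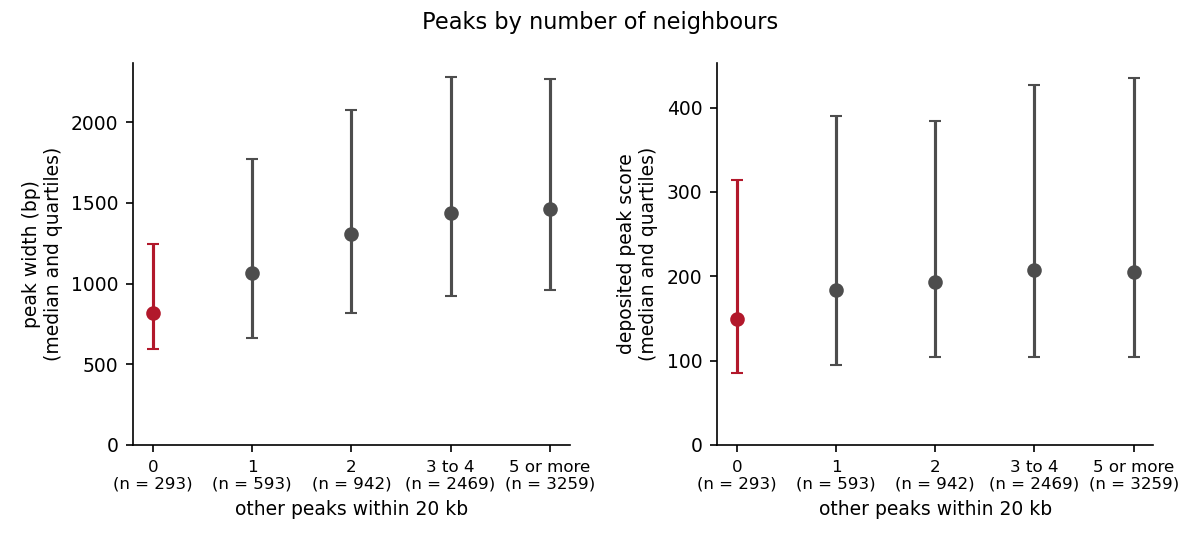
Peak width (bp, left) and deposited score (right) by the number of other peaks within 20 kb, with points at the median and bars from the lower to the upper quartile. The isolated peaks, in red, have the lowest median in both panels, and the width medians climb from 818 to 1460 bp across the classes.

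Width and score are related in this list. Within isolated peaks Spearman's rho of the pair was 0.68 across 293 peaks, and within the others it was 0.66 across 7263 peaks, values that describe 1 list in which both come from the same reads. The comparison was therefore repeated within 4 classes of equal size, cut from all arm peaks by score. Among peaks scoring 50 to 102, isolated peaks had a median width of 553 bp and others 828 bp. Among scores of 102 to 199 the medians were 737 bp for isolated peaks and 1136 bp for others. For scores of 199 to 418 they were 970.0 bp for isolated peaks and 1579 bp for others, and above that 1857 bp for isolated peaks and 2553 bp for others. The 4 ratios lay between 0.614 and 0.727. Scores within a class still differed somewhat between the groups. In the highest class the median score was 590.2 for isolated peaks and 691 for others, and in the lowest class it was 68.8 for isolated peaks and 71.9 for others.

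Set the other way round, scores at like width were not lower in isolated peaks, except in the widest class. Among peaks of 258 to 876 bp the median score was 102 for 158 isolated peaks and 93.6 for the others. Among 877 to 1368 bp it was 183 for 73 isolated peaks and 158 for the others. For 1369 to 2191 bp it was 379 for 35 isolated peaks and 252 for the others. Only at 2192 bp and above was the isolated median the lower one, with 462 for 27 isolated peaks and 547 for the others. Over the 4 width classes, narrowest first, isolated peaks made up 8.35%, 3.87%, 1.85% and 1.43% of the peaks. Over the 4 score classes, lowest first, they made up 5.29%, 4.29%, 3.28% and 2.65%.

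Among peaks of high score, narrow ones took a larger share of the isolated peaks. Of the 50 isolated peaks in the highest score class, 17 (34.0%, exact interval 21.2 to 48.8%) were no wider than the median arm peak of 1368 bp, against 212 of 1839 others (11.5%, exact interval 10.1 to 13.1%). Within this class the isolated peaks also scored lower, with a median of 590.2 against 691, so these groups were not matched by score. The part of score in this contrast was not tested.

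**Figure D3:**
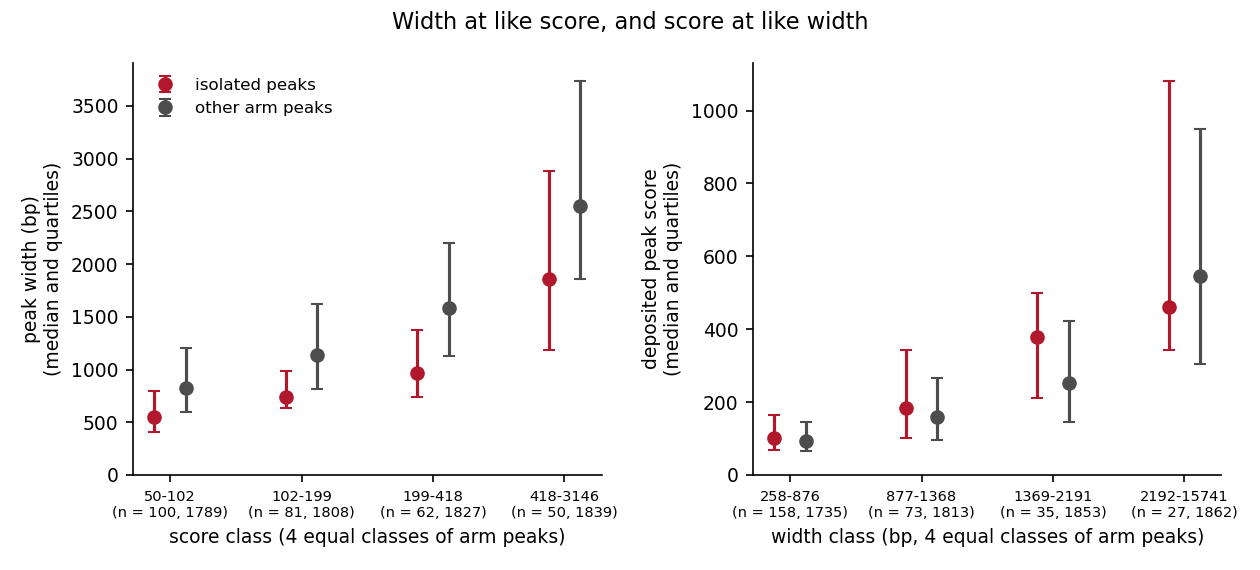
Left, peak width (bp) within 4 score classes, and right, deposited score within 4 width classes (bp), the classes being of equal size over all arm peaks, with medians as points and quartiles as bars for isolated (red) and other (grey) peaks. The red width medians lie below the grey ones in all 4 score classes, while the red score medians lie above the grey ones in the first 3 width classes.

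The isolated peak of highest score lay on 3R at 17121319 to 17125151, was 3833 bp wide and had reached the value 3100. Its nearest midpoint was 21.3 kb away. Next came 2R 10461234 to 10465041, 3808 bp wide with a score of 1775, and then 3L 2191358 to 2192685 with a score of 1414. The peak of 3L was only 1328 bp wide, narrower than the median of the other arm peaks. On X, the highest score was 1387 at 1510341 to 1515773, a peak of 5433 bp whose neighbours were 101 and 46.1 kb away. Also on X, the peak at 10439977 to 10442548 scored 1270.5 and that at 492081 to 494351 scored 1161. On 2L, 5943337 to 5950442 scored 1305 over 7106 bp and 244127 to 252918 scored 1125 over 8792 bp, the greatest width of any isolated peak. The last members above 1000 were 2R 5632115 to 5634532 with 1035 and 4 715409 to 718605 with 1019.5. In this group of 10, the distance to the nearest midpoint ran from 20.2 to 46.1 kb. Of all isolated peaks, 19.1% had no other midpoint within 50 kb.

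Broad isolated peaks, those of 4 kb or more, were few. They numbered 5 of the 506 broad arm peaks (0.988%), whereas 74 of 647 peaks under 600 bp (11.4%) were isolated. Besides the 3 broad peaks already given on 2L and X, they were X 15779563 to 15787552, 7990 bp wide with a score of 462, and X 1902658 to 1908135, 5478 bp wide with a score of 788. At the other end, the narrowest isolated peak was 3L 6991786 to 6992107, 322 bp wide with a score of 63.7. Peaks of 329 bp lay at 2L 20026347 to 20026675 and 3R 25116885 to 25117213, with scores of 77.1 and 57.6. Those of 333 and 335 bp were both on 2R, at 17759300 to 17759632 and 1382935 to 1383269, with scores of 50.7 and 50.9, just above the floor of the list.

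Among isolated peaks the distance to the nearest midpoint had a median of 30.7 kb (quartiles 24.0 and 45.6 kb), against 3.29 kb for other peaks (quartiles 2.01 and 5.50 kb), a difference the choice of members makes by itself. The farther of both flanking distances had a median of 70.1 kb, with quartiles of 45.7 and 120.0 kb, over the 287 isolated peaks that were neither first nor last on their arm. Isolated peaks had a median of 9 other peaks within 100 kb (quartiles 5 and 14), against 16 for other peaks (quartiles 12 and 21), and this difference too is in part fixed by the rule, which sets the count within 20 kb to 0 for members and to at least 1 for others. No peak at all lay within 50 kb of 56 isolated peaks (19.1%) and none within 100 kb of 13 (4.44%).

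The members farther than 50 kb from any other midpoint were narrower than the rest. Median width was 906 bp for the 86 peaks with a nearest midpoint at 20 to 25 kb, 977 bp for 55 peaks at 25 to 30 kb, 840.5 bp for 96 at 30 to 50 kb, 678 bp for 43 at 50 to 100 kb and 704 bp for the 13 beyond 100 kb. The median scores of these classes were 139.5, 206, 151, 115 and 146. All 10 peaks with scores of 1000 or more lay within 50 kb of another midpoint. Only 19.1% of all isolated peaks lay farther than that, so the 10 are too few to set high scores apart in this. Spearman's rho of nearest distance with width was -0.17 and with score -0.12, as descriptions over 293 peaks of 1 list.

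The most remote was 2R 129820 to 130897, 1078 bp wide with a score of 191, whose next midpoint was 273 kb away. It is the first peak of its arm, so the distance was measured on 1 side. The same holds for 3L 23332255 to 23332958, the last of its arm, at 190 kb and a score of 146. With peaks on both sides, X 2841742 to 2842533 stood 158 kb from the nearer neighbour, 3L 18453662 to 18454346 stood 157 kb and 2L 17963134 to 17963798 stood 151 kb. Their widths were 792, 685 and 665 bp and their scores 195, 148 and 243.

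Near the limit of 20 kb, 22 isolated peaks had a nearest midpoint at 20 to 21 kb, with a median width of 992 bp and a median score of 210.1. Just outside, 14 peaks had one at 19 to 20 kb, with a median width of 843 bp and a median score of 184. The members closest to the limit were 3L 5894933 to 5895824 at 20.13 kb, the peak of X at 492081 to 494351 at 20.16 kb, 3R 21585697 to 21586328 at 20.20 kb, 2L 16656588 to 16657619 at 20.22 kb and 2R 15141181 to 15142115 at 20.33 kb, with scores of 115, 1161, 114, 66.8 and 621 in that order. The closest outside were the pair 2L 1649546 to 1650152 and 2L 1669560 to 1669993, 19.93 kb apart and scoring 179 and 99.5. They were followed by 2R 15868156 to 15868785 at 19.70 kb, X 14476443 to 14477275 at 19.65 kb and X 11552852 to 11553704 at 19.56 kb, with scores of 333, 89.4 and 303.

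Isolated peaks bordered long stretches without peaks more often than their share of the list, which the rule brings about, since both distances of a member exceed 20 kb. They were 114 of the 460 ends (24.8%) of gaps over 100 kb between neighbouring midpoints, against 3.88% of arm peaks. The share was similar over all gaps above 20 kb, with 580 of 2608 ends (22.2%), and above 200 kb, with 17 of 88 (19.3%). Long gaps were therefore not set apart from shorter ones by this share. Of the 230 gaps over 100 kb, 19 (8.26%) had an isolated peak at both ends, 76 (33.0%) at 1 end and 135 (58.7%) at neither. Of the 44 gaps over 200 kb, 31 (70.5%) had none at either end. The widest gap of 2L, 469 kb between midpoints, had the isolated peak 16909784 to 16910670 (score 169) on its lower side and a peak with close neighbours on the other. The widest gap of 2R, 306 kb, had isolated peaks on both sides. The widest gaps of X, 3L and 3R, of 435, 349 and 346 kb, were bordered on both sides by peaks with neighbours within 20 kb.

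Most isolated peaks stood between peaks that were not isolated. They formed 222 uninterrupted runs, of which 171 held 1 peak, 42 held 2 and 9 held 3 or more. The 9 longer runs took in 38 peaks (13.0% of all isolated peaks). The nearest neighbour of an isolated peak was itself isolated in 72 cases (24.6%). By the rule such a neighbour lies across a gap over 20 kb, and 22.2% of the ends of all such gaps were isolated peaks, a share close to it. The nearest neighbours of isolated peaks had a median score of 189.4 and a median width of 1069 bp, where those of other peaks had 189.7 and 1353 bp.

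The longest run was at the start of 2R, the centromere-side end of that arm, from 129820 to 1497133. It held 11 consecutive isolated peaks over 1367 kb, beginning with the first peak of the arm. Its median score was 59.5, close to the floor of 50, and its median width was 855 bp. After the first peak, with its score of 191, those starting at 403099, 506377, 632672 and 703038 scored 52.3, 59.5, 53.7 and 124. Those starting at 1009392, 1032208, 1181755, 1227860 and 1382935 scored 54.2, 78.8, 76.5, 58.9 and 50.9. The one high value, 589, belonged to the last peak of the run, 1495913 to 1497133. The second longest run lay on chromosome 4 and held 5 peaks from 715409 to 980909, with a median score of 334 and a median width of 1695 bp. On 3R, 4 peaks from 12528497 to 12695471 scored 64.9 to 189 at widths from 369 to 794 bp.

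Chromosome 4, the small chromosome known for being largely heterochromatic while carrying active genes, held isolated peaks at a share far above the large arms. There, 11 of 34 peaks were isolated (32.4%, exact 95% interval 17.4 to 50.5%), against 3.11% to 4.68% on the large arms. They were 3.75% of all isolated peaks and 0.317% of the others. A sparse chromosome gives more isolated peaks by the rule itself, and chromosome 4 held 29.8 peaks per Mb of span against 56.0 to 72.8 on the large arms. The part of density in this share was not tested. In the 12 windows of 1 Mb on the large arms with 40 or fewer peaks, 32 of 372 peaks were isolated (8.60%, exact interval 5.96 to 11.9%). Among these windows the share had a median of 7.05% and went up to 20% on 2R at 1000001 to 2000000, apart from the first window of 2R, in which all 5 peaks were isolated. The median distance of a chromosome 4 peak to its nearest neighbour, isolated or not, was 10.4 kb, against 3.15 to 3.57 kb on the large arms.

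Isolated peaks of chromosome 4 were not narrow. Their median width was 1374 bp (range 547 to 3197 bp), against 1234 bp for the 23 others of that chromosome, and the median score was 101.4 for the isolated and 100.9 for the other peaks of chromosome 4. With 11 peaks the exact order-statistic intervals were wide, 789 to 2793 bp for width and 65.7 to 478 for score. The highest was the peak of 1019.5 already named, above every other peak of chromosome 4, of which the non-isolated ones reached at most 773. It was followed by 827480 to 829174 with a score of 478, 924967 to 926651 with 334 and 528097 to 529470 with 203. Peaks at 886034 to 888044, 980363 to 980909 and 378327 to 381119 scored 105, 101.4 and 101.2. The remaining 4, at 328562 to 329765, 646183 to 647107, 1133360 to 1134148 and 1219326 to 1220164, scored 77.5, 64.6, 65.7 and 85.0. The peak of 1019.5 also borders the widest gap of the chromosome, 111 kb, whose other side is the isolated peak at 827480.

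Among the large arms, the share of peaks that were isolated was 4.68% on 2L (60 of 1281, exact interval 3.59 to 5.99%), 4.08% on 3R (73 of 1788, 3.21 to 5.11%), 3.54% on 2R (54 of 1524, 2.67 to 4.60%), 3.36% on 3L (52 of 1548, 2.52 to 4.38%) and 3.11% on X (43 of 1381, 2.26 to 4.17%). All neighbours in this order have overlapping intervals, and so do the first and the last. Arm 3R held 24.9% of all isolated peaks and 23.6% of other peaks, and 2L held 20.5% of isolated and 16.8% of other peaks. For 2R these shares were 18.4% of isolated and 20.2% of other peaks, for 3L 17.7% of isolated and 20.6% of other peaks, and for X 14.7% of isolated and 18.4% of other peaks. Isolated peaks per Mb of span ran from 1.92 on X to 2.62 on 2L and 3R.

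On each large arm isolated peaks had the lower median width. Isolated and other peaks had median widths of 732 against 1386 bp on 2L, 858.5 against 1436 bp on 2R, 775 against 1325 bp on 3L, 797 against 1402 bp on 3R and 982 against 1434 bp on X. The ratio was lowest on 2L, at 0.528, and highest on X, at 0.685. On X the exact interval of the isolated median width, 792 to 1477 bp, takes in the 1434 bp of the other peaks. The median scores of both groups on X lay close together. The 43 isolated peaks of X had a median score of 229.7 (exact interval 136 to 377), against 233 for the 1338 other peaks of X, a ratio of 0.987. The 239 isolated peaks of the 4 autosomal large arms had a median score of 143 (exact interval 116 to 167), against 197 for the 5902 others, a ratio of 0.726. Arm by arm, this ratio was 0.611 for 2R, 0.701 for 2L, 0.737 for 3L and 0.785 for 3R. The exact interval of the X median score takes in the medians of both groups of other peaks and the 143 of autosomal isolated peaks. The difference between X and the autosomal arms was not tested. Of the 10 isolated peaks scoring 1000 or more, X held 3, both 2L and 2R held 2, and 3L, 3R and chromosome 4 held 1 each.

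**Figure D4:**
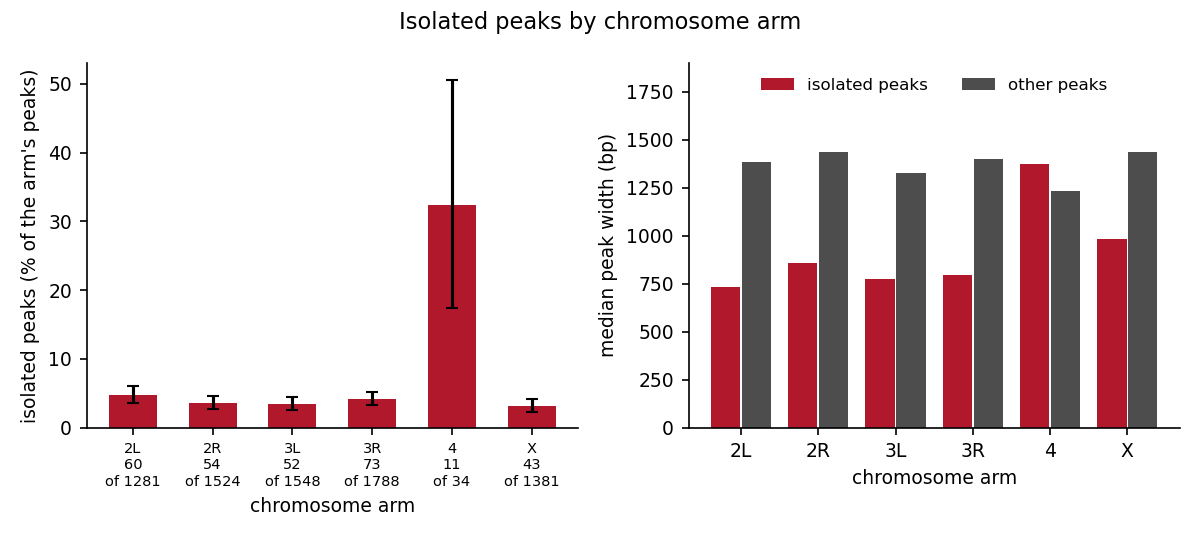
Left, isolated peaks as a percentage of each arm's peaks, with bars from 0, exact 95% binomial intervals and the counts under each arm name, and right, median width (bp) of isolated (red) and other (grey) peaks per arm. Chromosome 4 stands at 32.4% against 3.11 to 4.68% elsewhere, and it is the arm on which the red width bar is taller than the grey one.

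Along the 5 large arms, isolated peaks were most frequent at the centromere side. Arm ends were set here by the first and last peak of the list. With this span of each arm cut into 10 segments of equal length, the segment next to the centromere had 40 of 516 peaks isolated (7.75%, exact interval 5.60 to 10.4%), and the share in the remaining segments lay between 2.56% and 4.63%. The first segment held 14.2% of isolated peaks and 6.57% of other peaks. It was also the sparsest, with 44.0 peaks per Mb against 57.0 to 81.2, and had the most isolated peaks per Mb of span (3.41, against 1.53 to 2.98). Within 2 Mb of the centromere-side end, 37 of 408 peaks were isolated (9.07%, exact interval 6.47 to 12.3%), against 232 of 6791 (3.42%, exact interval 3.00 to 3.88%) in the body of the arms. The arms were unlike in this. The share in these 2 Mb was 19.7% on 2R (12 of 61), 12.1% on 2L (8 of 66), 10.5% on X (6 of 57), 9.41% on 3L (8 of 85) and 2.16% on 3R (3 of 139). Without 2R, which holds the run of 11, it was 7.20% (25 of 347), and without 3R it was 12.6% (34 of 269). How far reads could be placed in these ends was not tested.

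Centromere-side isolated peaks had a median score of 124 and a median width of 855 bp, against 177 and 1338 bp for other peaks of the same zone. The telomere-side 1 Mb held 13 isolated peaks among 323 (4.02%, exact interval 2.16 to 6.78%). Their median score was 342 and their median width 1264 bp, against 207 and 1627 bp for the others of that zone. Isolated peaks near the telomere side of X had a median score of 709.6 over 4 peaks, with scores from 342 to 1161. The 5 of 2L had a median of 108, so the zone as a whole rests on few and unlike peaks.

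**Figure D5:**
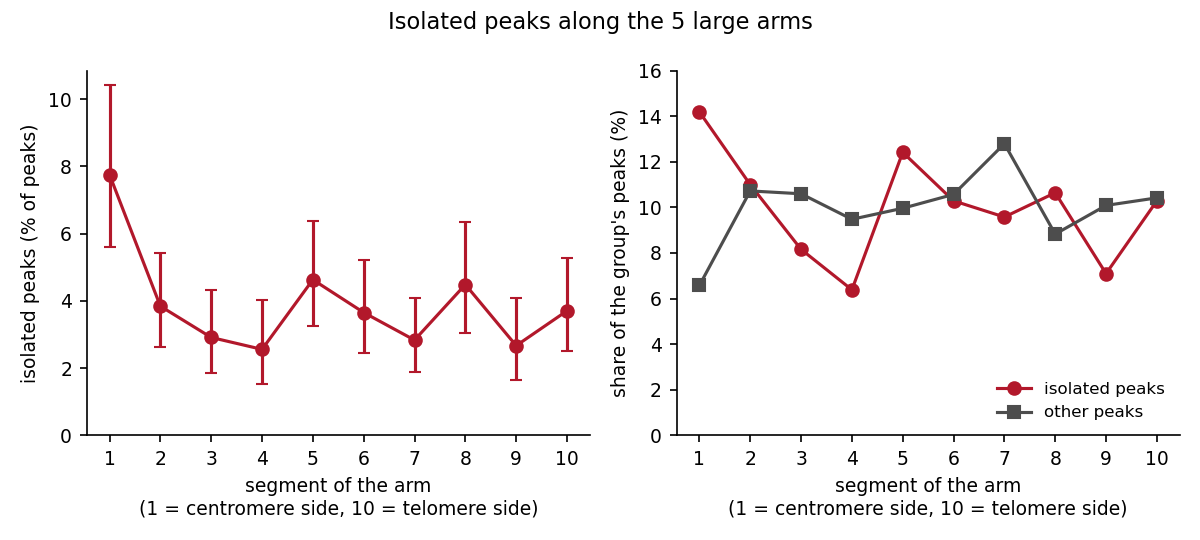
Isolated peaks along the 5 large arms in 10 equal segments from the centromere side (1) to the telomere side (10), as a percentage of the peaks in each segment with exact 95% binomial intervals (left), and as each segment's share (%) of isolated (red) and of other (grey) peaks (right). The first segment stands at 7.75% and holds 14.2% of isolated peaks against 6.57% of the others.

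The number of isolated peaks per window varied little with the number of all peaks. In the 115 windows of 1 Mb that end before the last peak of a large arm, their number was 2.38 ± 1.55 per window (SD over windows), with a median of 2 and a range of 0 to 7, and 14 windows held none, 6 of them on X. Across these windows Spearman's rho of all peaks with isolated peaks was -0.07, and with the percentage isolated it was -0.43, both as descriptions of windows that share 1 list. Windows with 5 to 49 peaks held 2.59 isolated peaks on average, those with 50 to 68 held 2.42, those with 69 to 76 held 2.62 and those with 77 to 106 held 1.93. The percentage isolated in these 4 classes was 6.56%, 4.04%, 3.61% and 2.18%. The lower width was present at each density, since the median was 784, 806, 853.5 and 799.5 bp for isolated peaks of the 4 classes, against 1284.5, 1405.5, 1446 and 1431 bp for the others. Within single windows that held at least 3 peaks of each kind, isolated peaks had the lower median width in 46 of 52 windows and the lower median score in 35 of 52. The fullest windows for isolated peaks were 2R 1000001 to 2000000 with 7 among 35 peaks and 3R 4000001 to 5000000 with 6 among 61.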

How the data were processed

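The deposited values analysed are those of 1 list of peaks from ChIP of cad-GFP. MACS made the peak calls, per the file headers. The alignment used Bowtie on BDGP5, per the submitters' processing notes. Versions, settings, the use of the inputs and any pooling of replicates are not given there. The score deposited by the authors per peak was taken as it stands. Its floor of 50 has the form of minus 10 times a log10 p-value of 1e-05, so differences of score are not folds of binding. Why scores pile up at 3100, with a few above it, is not given.

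Starts were raised by 1 from the BED convention, midpoints are halfway between both edges, and a neighbour at 20 kb or less ended isolation. Python 3.11.15 with pandas 2.3.3, numpy 2.4.6 and scipy 1.17.1 gave counts, medians and exact 95% intervals, which treat peaks as independent and cover counting error only. The isolation rule was checked against a direct count on 20 simulated lists, with identical members in 20. No test was run. The rule for named peaks took the 10 of highest score, the 5 most remote, the 5 widest, the 5 narrowest, the highest on each arm, all of chromosome 4, 5 on each side of the limit and the longest run. Other peaks named, at gaps and in the next runs, were chosen after their values were seen. Members and comparisons were chosen with earlier results of these data known. Alternatives were other distances (10 and 30 kb, edges instead of midpoints), scores of 100 or more, merging within 500 bp and leaving out the ends of the list. Leaving out capped peaks, peaks under 600 bp, chromosome 4 or the centromere-side 2 Mb was added after seeing the data. A planned description of sequence was not run for want of a BDGP5 genome.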

Additional observations from a re-analysis of the deposited data

Results flagged for a closer look

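Outside the 6 chromosome arms the list held 23 peaks, which the choice of isolated peaks leaves out. They are set apart because they are signal in sequences that no comparison above used. Of these, 16 had no other midpoint within 20 kb on their own sequence, and the 7 that did were all on XHet. No input peaks were analysed here, so none of the 23 peaks was set against a control.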

How the results depend on the processing

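Isolated peaks had the lower median width and the lower median score under all 10 alternatives, with width ratios of 0.550 to 0.742 and score ratios of 0.666 to 0.940. Their number depends on the distance: 841 peaks (11.1%) were isolated at 10 kb, with a width ratio of 0.742 and a score ratio of 0.876, and 152 (2.01%) at 30 kb. With scores of 100 or more alone, 349 of 5740 peaks were isolated (6.08%, width ratio 0.668, score ratio 0.869), and 199 of them were members before. Merging within 500 bp gave 349 of 6221 (5.61%). Leaving out peaks under 600 bp, added after seeing the data, gave 4.36%, a width ratio of 0.656 and a score ratio of 0.940, against 0.585 for width and 0.741 for score with all peaks. By construction, nearer neighbours count at 10 kb and fewer peaks count as neighbours in the subsets; the cause of the smaller differences was not tested. Among the large arms 2L had the highest share in all 10 settings, all cut from the same list and so not independent. Leaving out chromosome 4 cannot change the large arms. Without the centromere-side 2 Mb, 2L (4.28%) and 3R (4.245%) were nearly equal. The ratio of highest to lowest arm ran from 1.18 to 1.78. For the main value, a range of 0.861 to 2.65 came from dividing the interval limits of 2L by the opposite limits of X. That range is not an exact interval of the ratio and is wider than such an interval. Both arms were also picked from the same list as highest and lowest. Values inside the range therefore cannot show that the ratio is stable. With 1 list for the replicates, no replicate could be left out. The unknown depth limits how far a lack of neighbours can be read as a lack of binding.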
